A study of Mus musculus with 384 samples.

Results

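The BNST, or bed nucleus of the stria terminalis, is represented by 31 of the 380 samples with values in a targeted RNA sequencing experiment on mouse brain regions. Its members were chosen by the region in the sample labels. The samples fell into 4 label groups, with 8 mice labelled MS inject, 8 MS naive, 8 Co naive and 7 Co inject. An eighth Co inject mouse, number 243, is labelled for this region but has no values for it.

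According to the description of the series, male Balb/c mice were reared with limited nesting and bedding material or with early handling, and as adults were housed with an ovariectomized female or exposed to chronic social defeat, without an unmanipulated group. The sample labels name none of these conditions, and they list a region Pit where the description has the nucleus accumbens. The labels code MS as status 1 and Co as status 0, and inject and naive as injection 1 and 0, without naming the agent, a vehicle or the meaning of MS and Co, so these groups were not matched to the rearing and housing conditions. The age label of every sample is postnatal day 9, whereas the methods place tissue collection in adulthood. MS mice are numbered from 79 to 109 and Co mice from 227 to 267, so that anything tied to these 2 number ranges, such as a cohort, cannot be told apart from status. Litters are not given in the labels, and p-values measure the spread between mice whatever their litter.

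The BNST belongs to the extended amygdala and consists largely of GABAergic neurons. It receives input from the amygdala and ventral hippocampus and projects to the paraventricular nucleus of the hypothalamus (PVN), through which it takes part in the control of the glucocorticoid stress response and of sustained anxiety. The glucocorticoid receptor (GR), encoded by *Nr3c1*, is held in a form able to bind hormone by chaperones such as HSP90, and *Fkbp5* is both a brake on the receptor and one of its targets. The assayed panel consists mainly of mouse orthologues of human genes whose response to glucocorticoids varies with alleles linked to major depressive disorder (MDD) or schizophrenia (SCZ).

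The table lists 69 genes, each measured by the reads of a short amplicon divided by a size factor of the sample. Since amplicons differ in efficiency, levels were compared between samples of a gene and not between genes. The BNST libraries held 47577 to 197073 reads (median 99713), with medians of 101480.5 in MS and 96969 in Co. A value of 0 allows up to 3 reads, which corresponded to a normalized value between 2.11 and 10.6 depending on the library, for counting error only. Of the 69 genes, 50 were above 0 in every BNST library, 19 were at 0 in at least 1, and 6 were at 0 in more libraries than not. The highest mean values were those of *Fth1*, *Hsp90aa1* and *Rps12*, and the lowest those of *Tnf*, *Fan1* and *Nuak2*, the last at 0 in 30 of 31 libraries. Ferritin and ribosomal protein genes have near-identical copies in the genome, so the source of their reads is less certain. Between 3 and 14 genes were at 0 in a library, with 8 to 14 in the libraries under 60000 reads and 11 in Co naive mouse 239, which had 96969 reads. Correlation of log2 values between mice of a group ranged from 0.811 to 0.970 over 105 pairs, and no pair of libraries was identical. Of the 31 libraries, 30 had *Fth1* as the assay with most reads. The exception was Co inject mouse 247, one of 4 libraries under 60000 reads, in which *Rps12* led and 12 genes were at 0. The other libraries under 60000 reads were Co naive mouse 227 and MS inject mice 81 and 95.

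**Figure D1:**
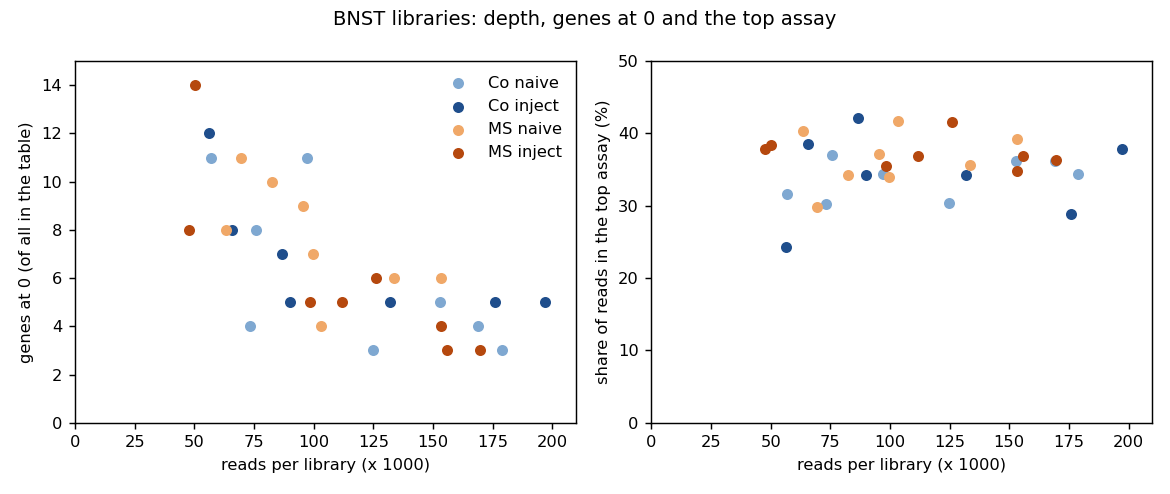
Reads per BNST library (x axis, in units of 1000) against the number of genes at 0 (left) and the percentage of reads in the leading assay (right), with 1 point per mouse and colours for the 4 label groups. Libraries of all groups spread over 47577 to 197073 reads, and the library with 14 genes at 0, MS inject mouse 81, is among the shallowest.

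The region label could not be checked against defining markers, since 0 of 5 markers of BNST GABAergic neurons, 0 of 3 of oligodendrocytes and 0 of 3 of astrocytes are in the table. Judged by the whole profile, 10 of the 31 libraries correlated best with the mean of the other BNST libraries, 7 with that of the amygdala (AMY) and 4 with that of the ventral hippocampal field vCA1. These profiles differed little, as the correlation with the nearest mean exceeded that with the BNST mean by at most 0.0138. Of the markers of other cells, 3 of 6 for microglia and macrophages were in the table (*Lrrc25*, *Slc7a7*, *Tnf*), and their summed value reached at most 37.3 in Co inject mice, 71.6 in Co naive mice, 70.5 in MS inject mice and 92.3 in MS naive mice, with a lowest value of 0 in each group. The sum of 4 markers of vessels, meninges and choroid plexus (*Anxa2*, *Thbs1*, *Lcn2*, *Tmem176a*) ran from 248.3 to 608.2, 282.3 to 740.9, 372.0 to 842.7 and 213.2 to 740.1 in the same order.

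Differences were tested with limma on log2(value + 1), with a mean for each label group and Benjamini-Hochberg adjustment over the 69 genes. The first question was whether BNST transcripts differed between MS and Co mice, averaged over injection. No gene passed an adjusted p of 0.1 (0 of 69, 0%), while 7 genes had an unadjusted p under 0.05, which is 10.1% of the genes. Of these 7, 5 were higher in MS (*Nedd4*, *Hsp90aa1*, *Spag9*, *Fam117b* and *Fth1*, 7.25% of all genes) and 2 were lower (*Fan1* and *Zap70*, 2.9%). The gene nearest to the threshold was *Nedd4*, with an adjusted p of 0.1005.

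*Nedd4* encodes an E3 ubiquitin ligase that marks membrane receptors and other proteins for internalization or degradation. It is located on chromosome 9 (plus strand, positions 72662346 to 72749852 in GRCm38, GENCODE M21). In MS inject mice its normalized values ran from 1325 to 1847 with a median of 1556, and in MS naive mice from 1143 to 1534 with a median of 1320. They ran from 957 to 1432 (median 1138) in Co inject mice and from 770 to 1450 (median 1240) in Co naive mice. The groups overlapped, yet 15 of 16 MS mice lay above the Co median and 3 of 15 Co mice lay above the MS median. The mean was 1439 ± 192 (SD, n = 16) in MS and 1166 ± 209 (SD, n = 15) in Co, a log2 difference of 0.32 (SE 0.09, 95% interval 0.13 to 0.50) or 1.25-fold, with an unadjusted limma p of 0.00146. The difference was 0.43 (95% interval 0.16 to 0.69) within injected mice and 0.21 (-0.05 to 0.46) within naive mice. These values did not rest on low counts, as each library held between 347 and 1840 *Nedd4* reads.

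*Nedd4* is close enough to the threshold for single libraries to decide the call. Leaving out any one of Co inject mice 233, 235 and 249, Co naive mice 241, 253 and 255, MS inject mice 79, 85 and 95 or MS naive mouse 91 brought its limma adjusted p below 0.1, to between 0.0479 and 0.0991. Leaving out any of the other 21 kept it above 0.1, up to 0.224. Over all 31 such fits the log2 difference stayed between 0.27 and 0.34. Without the 4 libraries under 60000 reads the difference was 0.28 with an adjusted p of 0.441, and with all samples scaled to the same total it was 0.24 with an adjusted p of 0.308. Over 9 alternatives to the fit the limma adjusted p of *Nedd4* ran from 0.0482 to 0.441.

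Because the panel was assembled around the glucocorticoid response, the promoter windows of its genes were searched for the GR half-site AGAACA on both strands (TGTTCT on the other). RefSeq promoter windows (GRCm38.p6) were found for 50 of the 69 genes, and 8 of these 50 genes held the half-site in at least 1 window. Counted by window, 13 of the 71 windows of the panel (18.3%) held it, and 19.0% of all 32851 windows of the same length did. *Nedd4* has 2 windows, of which the downstream one holds the half-site and the upstream one does not. The downstream window is shown since *Nedd4* had the lowest p by status, with the half-site in capitals, 5′ to 3′ on the plus strand at chr9:72693048-72693347.

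Nedd4: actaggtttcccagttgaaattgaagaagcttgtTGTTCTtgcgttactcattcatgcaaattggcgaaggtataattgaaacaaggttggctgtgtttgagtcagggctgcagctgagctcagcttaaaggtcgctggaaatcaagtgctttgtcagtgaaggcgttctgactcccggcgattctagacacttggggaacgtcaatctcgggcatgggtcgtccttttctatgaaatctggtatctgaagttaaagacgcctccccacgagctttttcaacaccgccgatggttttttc

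The half-site starts at position 35 of this window. The full palindromic site, AGAACA and TGTTCT separated by 3 bases of any kind, was in 0 of the 50 panel genes and in 3 of all windows. A match of so short a word describes the sequence only.

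*Hsp90aa1*, the stress-inducible cytosolic HSP90 chaperone, had the next lowest p. Its values ran from 19987 to 33190 (median 24212) in MS inject and from 15244 to 26420 (median 22036) in MS naive, against 11633 to 27277 (median 20282) in Co inject and 13509 to 29386 (median 16674) in Co naive. Of the MS mice, 14 of 16 exceeded the Co median, although the ranges overlapped broadly. The log2 difference was 0.32 (SE 0.12, 95% interval 0.07 to 0.57), with a limma p of 0.0129 and an adjusted p of 0.255. It was 0.18 with an adjusted p of 0.946 when the 4 libraries under 60000 reads were left out.

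*Spag9*, a scaffold of JNK and p38 kinase signalling, had values of 763 to 1226 (median 1031) in MS inject and 764 to 1087 (median 953) in MS naive. Co inject mice ran from 745 to 918 (median 895) and Co naive mice from 272 to 985 (median 855), so that the lowest value was in Co naive. The log2 difference was 0.32 (SE 0.14), with an adjusted p of 0.386 by limma. *Fam117b* had a log2 difference of 0.40 (SE 0.18) at the same adjusted p, with values from 183 to 670 in MS and 204 to 591 in Co. *Fth1*, the ferritin heavy chain that stores iron, had values of 41542 to 67711 (median 53615) in MS and 31651 to 68910 (median 46790) in Co. Its log2 difference of 0.21 (SE 0.10, adjusted p 0.423) was 0.13 when samples were scaled to the same total. *Fth1* takes up much of each library (a median of 36.2% of the reads, and at most 42.2%), so its share weighs on that total.

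**Figure D2:**
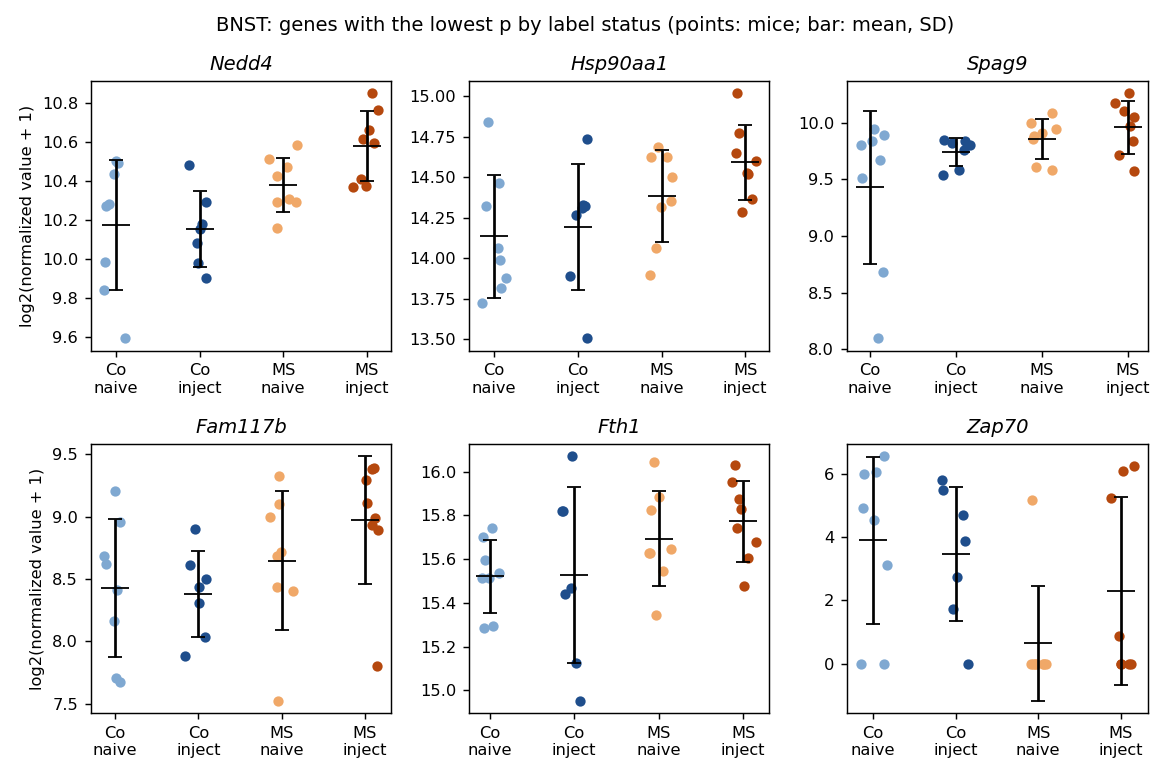
log2(normalized value + 1) (y axis, scaled separately for each gene) of 6 genes with low p by status, in the 4 label groups of the BNST (x axis). Points are mice and bars are the mean and SD. MS values of *Nedd4* overlap with those of Co, at 1143 to 1847 against 770 to 1450 before the log, and *Zap70* is at 0 in 11 of 16 MS mice and 3 of 15 Co mice.

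Both genes that were lower in MS at an unadjusted p under 0.05 had few reads. *Zap70*, a kinase of T cell receptor signalling, was at 0 in 11 of 16 MS mice and in 3 of 15 Co mice. Its values reached 74.1 in MS and 93.1 in Co, with medians of 0 and 22.4, and no library held more than 59 of its reads. The log2 difference was -2.21 (SE 0.85, 95% interval -3.95 to -0.47), with a limma adjusted p of 0.255. Among naive mice, MS mouse 107 had 34.6 and the other 7 MS mice had 0. *Zap70* was the 1 of 2 T cell markers in the table. *Fan1*, a nuclease of DNA crosslink repair, was at 0 in 13 of 16 MS and 6 of 15 Co mice, never exceeded 13 reads, and had a log2 difference of -1.25 (SE 0.48, adjusted p 0.255). The fitted differences of such genes depend on the pseudocount, and over the alternatives that of *Zap70* ran from -3.83 to -0.79.

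Further genes with low p had lower means in MS and intervals that include 0. *Mtmr3*, a phosphoinositide phosphatase, had values of 68.6 to 288 (median 198) in MS and 140 to 307 (median 231) in Co. Its log2 difference was -0.32 (95% interval -0.64 to 0.01, limma adjusted p 0.436), and that of *AW209491* was -0.43 (-0.90 to 0.03, adjusted p 0.458).

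The second question was whether injected and naive mice differed, averaged over status. No gene passed the threshold (0 of 69, 0%), and 0 genes had an unadjusted p under 0.05 by limma. The lowest p, 0.0595, was that of *Abhd5*, a co-activator of triglyceride lipase, and its adjusted p was 0.938. Injected mice ran from 77.2 to 317 (median 174) and naive mice from 40.5 to 247 (median 145) for this gene, a log2 difference of 0.45 (SE 0.23, 95% interval -0.02 to 0.92).

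The other genes with the lowest p by injection were mostly those with values near 0. *Zfp553*, a zinc finger gene at 0 in 16 of 31 mice, differed by -1.05 (SE 0.58), *Lcn2*, an acute-phase lipocalin at 0 in 19 mice, by 1.15 (SE 0.77), *Rfx5* by 1.15 (SE 0.81), *Mknk2* by 1.00 (SE 0.70) and *Rbm4* by -0.63 (SE 0.51). Without MS inject mouse 81 the difference of *Rbm4* was -0.21. *Spag9* differed by 0.21 (SE 0.14), and by 0.11 without Co naive mouse 227. With no mouse left out, each of these genes had a limma adjusted p of 0.938 and an interval that included 0.

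*Nr3c1*, the gene of the receptor itself, had the third lowest p by injection. Injected Co mice had values of 173 to 389 (median 249.7) and naive Co mice of 147 to 309 (median 208). Injected MS mice had 176 to 497 (median 236) and naive MS mice 114 to 364 (median 239). The highest value belonged to MS inject mouse 95, whose library was the shallowest with 47577 reads. The log2 difference by injection was 0.25 (SE 0.16, 95% interval -0.08 to 0.59, adjusted p 0.938), and 0.18 without mouse 95. By status *Nr3c1* differed by -0.04 (-0.37 to 0.30, adjusted p 0.996) and for the interaction by -0.04 (-0.70 to 0.63, adjusted p 0.956). An effect of status on *Nr3c1* beyond 1.29-fold lower or 1.23-fold higher thus lay outside its 95% interval.

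*Fkbp5* and *Cdkn1a*, a cyclin-dependent kinase inhibitor, are further glucocorticoid targets in the table, and both were at 0 in some libraries despite high values in others. *Fkbp5* was at 0 in 2 of 15 injected and 4 of 16 naive mice, with highest values of 192 and 162, and its injection difference was 0.81 (95% interval -1.11 to 2.73). *Cdkn1a* was at 0 in 1 injected and 3 naive mice, with highest values of 163 and 134, and its difference was 1.02 (-0.65 to 2.68), or 0.65 without MS naive mouse 101. Injected Co mice all had *Cdkn1a* values of at least 61.0, whereas the other 3 groups each included mice at 0. Both limma adjusted p-values were 0.938. Both intervals, which average over status, were wide and included 0. Within status, the inject minus naive difference of *Cdkn1a* was 2.42 (95% interval 0.03 to 4.81) in Co and -0.39 (-2.70 to 1.92) in MS. Its interaction of -2.81 (SE 1.62) did not pass the test, with a limma adjusted p of 0.750.

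**Figure D3:**
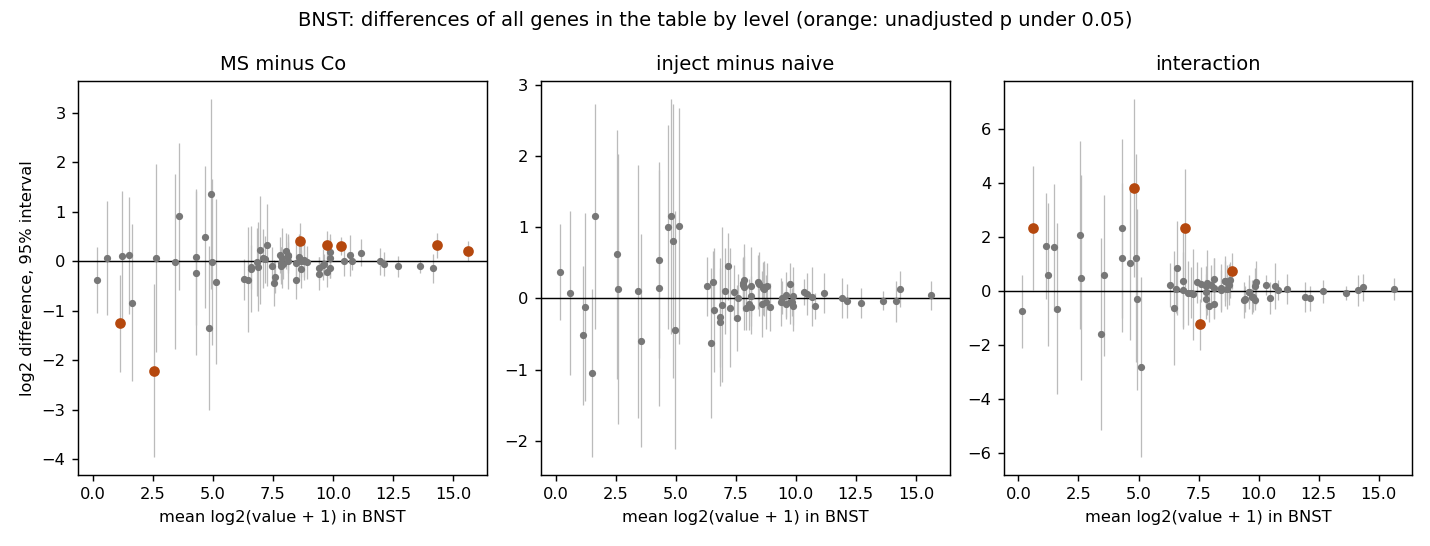
log2 difference of each of the 69 genes in the BNST (y axis, points with 95% intervals) against its mean log2(value + 1) (x axis), for MS minus Co, inject minus naive and their interaction; the y axes differ. Points in orange have an unadjusted p under 0.05 (7, 0 and 5 genes), and intervals widen towards low levels.

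For the size of differences that these mice could show, the 95% interval of a gene extended by a median of 0.39 log2 units to each side for status and for injection, and by 0.77 for the interaction. It lay within a 2-fold change in either direction for 47 genes by status, 48 by injection and 28 by the interaction. Over all genes, 31 were higher and 38 lower in MS, and 41 were higher and 28 lower with injection.

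The third question was whether the injection effect differed between MS and Co mice. No gene passed the threshold (0 of 69, 0%). By limma 5 genes, or 7.25%, had an unadjusted p under 0.05, with the lowest adjusted p at 0.628. The interaction was above 0 in 4 of them (5.8% of all genes, among them *Rfx5*, *Dpm2* and *Tnf*) and below 0 in 1 (*AW209491*, 1.45%).

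*AW209491* had the lowest p, and its smallest values were in MS inject mice. These ran from 67.9 to 220 (median 115), against 123 to 511 (median 222) in MS naive, 119 to 361 (median 317) in Co inject and 102 to 431 (median 187) in Co naive. The inject minus naive difference was -0.89 (95% interval -1.53 to -0.24) in MS and 0.35 (-0.32 to 1.01) in Co on the log2 scale, an interaction of -1.23 (SE 0.45, adjusted p 0.628). *Dpm2*, a subunit of dolichol-phosphate mannose synthase, went the other way. Its medians were 520 in MS inject and 437 in MS naive, 471 in Co inject and 555 in Co naive, and the Co inject mice spread from 139 to 876. The interaction was 0.73 (SE 0.33, adjusted p 0.628), or 0.48 without Co inject mouse 249. On leaving out 1 library the highest unadjusted limma p of *Dpm2* was 0.0569.

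*Rfx5*, a transcription factor of MHC class II genes, was at 0 in 3 of 8 MS naive mice and 1 of 7 Co inject mice. Its medians were 68.8 in MS inject, 4.85 in MS naive, 66.0 in Co inject and 75.2 in Co naive, so that the MS naive group stood lowest. Its interaction was 3.83 (SE 1.61, 95% interval 0.53 to 7.12), and 2.23 without the 4 libraries under 60000 reads. Without Co inject mouse 247 alone it was 2.97 with an adjusted p of 0.642 by limma. *Tnf*, which encodes an inflammatory cytokine, was at 0 in all 7 Co inject and all 8 MS naive mice and above 0 in 2 of 8 mice of each other group, with a highest value of 70.5.

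**Figure D4:**
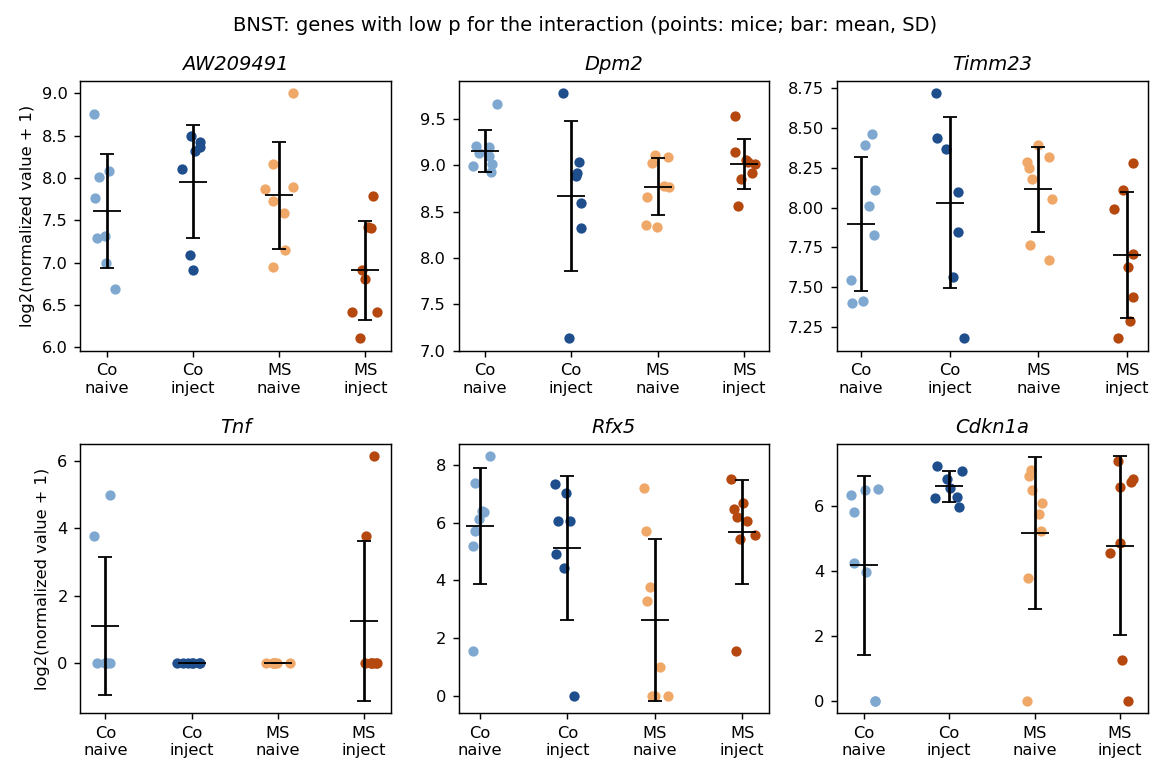
log2(normalized value + 1) (y axis, scaled separately for each gene) of 6 genes with low p for the interaction, in the 4 label groups of the BNST (x axis). Points are mice and bars are the mean and SD. *AW209491* is lowest in MS inject mice (median 115 before the log), and *Tnf*, *Rfx5* and *Cdkn1a* each have libraries at 0.

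The other genes with the lowest p for the interaction had intervals that include 0. *Timm23*, part of the import channel of the mitochondrial inner membrane, ran from 144 to 310 (median 203) in MS inject and from 203 to 335 (median 296) in MS naive, with an interaction of -0.55 (95% interval -1.16 to 0.07, adjusted p 0.750). *Prmt5*, an arginine methyltransferase, and *Impdh2*, an enzyme of guanine nucleotide synthesis, had interactions of -0.46 and -0.32 at the same adjusted p by limma.

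The gene lists gave the same picture, and none of their members passed the threshold by any term. The 5 of 13 genes of GR signalling and its chaperones in the table (*Nr3c1*, *Hsp90aa1*, *Cct7*, *Fkbp5*, *Cdkn1a*) had a median log2 difference of 0.12 by status, beside 0.00 for all genes, and 0.05 beside -0.08 with samples scaled to the same total. By injection their differences lay between 0.03 and 1.02 with a median of 0.25 beside 0.04 for all genes (0.22 beside 0.01 with equal totals), and none had an unadjusted p under 0.05. Among 7 genes of ubiquitination and the proteasome, *Nedd4* lay farthest above 0 by status, while the list's median was -0.08. *Nedd4l*, a paralogue of *Nedd4* with related ligase activity, differed by -0.25 (95% interval -0.58 to 0.09). The 19 MDD genes in the table had a median of 0.00 by status, with 10 above 0 and 9 below, and the 35 SCZ genes had a median of -0.05, with 13 above 0 and 22 below. With equal totals these medians were -0.03 and -0.13.

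Of the remaining lists by status, 6 ribosomal and translation genes had a median of -0.06, 6 mitochondrial genes 0.01, 9 immune genes 0.00, 9 genes of RNA and chromatin 0.10, 10 of lipids, glycans and membrane -0.01, and 8 of kinase and growth signalling 0.00. The 2 genes of nucleotide synthesis, *Gart* and *Impdh2*, differed by -0.10 and -0.13, with intervals that include 0. For the interaction the 9 immune genes had a median of 0.60 beside 0.12 for all genes, with 2 of the 9 (*Rfx5* and *Tnf*) at an unadjusted p under 0.05, beside 7.25% of all genes. The 8 signalling genes had a median of -0.26 with 0 at that level.

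To place the BNST among its connected regions, levels were compared within mice by limma on the difference between 2 regions of the same animal. Whether a higher level reflects more of a cell type or more RNA per cell cannot be told apart in tissue punches. Libraries were prepared on plates of 3 regions each, and since the labels do not give the plates, plate and region cannot be told apart either. Against the PVN, 16 of 69 genes (23.2%) passed an adjusted p of 0.1 over 29 mice, with 6 higher (8.7%) and 10 lower (14.5%) in the BNST. Against the AMY, 6 genes (8.7%) passed over 31 mice, with 3 higher (4.35%) and 3 lower (4.35%).

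*Ociad2*, a protein of endosomes and mitochondria, had the most negative difference from the PVN among the genes past the threshold. Its value was 995 ± 322 (SD, n = 31) in the BNST and 2437 ± 853 (SD, n = 30) in the PVN, and it was lower in the BNST in 26 of 29 mice. The log2 difference was -1.25 (SE 0.16, 95% interval -1.59 to -0.92), or 2.39-fold lower. PVN values of *Ociad2* were 692 to 1492 in mice 91, 97, 105, 227, 239, 243 and 249, within the BNST range of 354 to 1526. In the other PVN mice they were 2054 or more, so that the PVN mean and SD cover separate ranges. The profiles of the PVN samples were not checked against their label. *Nr3c1* was also lower, at 238 ± 78.1 against 335 ± 79.6 (SD), in 26 of 29 mice with a log2 difference of -0.59 (SE 0.10). *St6galnac4*, a sialyltransferase, was lower in 25 of 29 mice by -0.71 (SE 0.12), and *Cd47*, a surface signal that restrains phagocytes, in 25 of 29 by -0.48 (SE 0.10).

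*Nedd4* was higher in the BNST than in the PVN, at 1307 ± 241 against 893 ± 234 (SD), in 25 of 29 mice, with a log2 difference of 0.59 (SE 0.09, 95% interval 0.41 to 0.78). Its highest PVN values, 1146 to 1453, were in mice 91, 97, 227, 239, 243 and 249, all among those with low PVN *Ociad2*. Mouse 105, also low in PVN *Ociad2*, had a PVN *Nedd4* value of 813. *Rps25*, a protein of the small ribosomal subunit, was higher in 27 of 29 mice by 0.45 (SE 0.08). *Slco3a1*, an organic anion transporter, was likewise higher in 27 of 29 mice. Its mean log2 difference of 1.26 (SE 0.24) includes a PVN library at 1.68, and its median over mice was 1.07. *Abhd5* was higher by 0.44 (SE 0.15, adjusted p 0.0487 by limma). With all samples scaled to the same total, 14 of the 16 genes remained past the threshold, and the other two, *Ctnnb1* and *Fam117b*, did not.

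Against the AMY fewer genes passed the threshold than against the PVN. *Slco3a1* was higher in the BNST at 423 ± 112 against 311 ± 107 (SD), in 22 of 31 mice, with a log2 difference of 0.50 (SE 0.13). *Fth1* was higher by 0.22 (SE 0.07) and *Impdh2* by 0.30 (SE 0.10). *Pitpnm2*, a phosphatidylinositol transfer protein, was lower in 22 of 31 mice by -0.72 (SE 0.18), *Nedd4l* in 24 of 31 by -0.32 (SE 0.10), and *Mob3a* by -1.59 (SE 0.53) with values of 0 in both regions. Scaling all samples to the same total moved the median over all genes from 0.00 to -0.13 and gave 9 genes, 1 higher and 8 lower, of which 4 were among the 6; *Fth1* and *Impdh2* no longer passed.

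**Figure D5:**
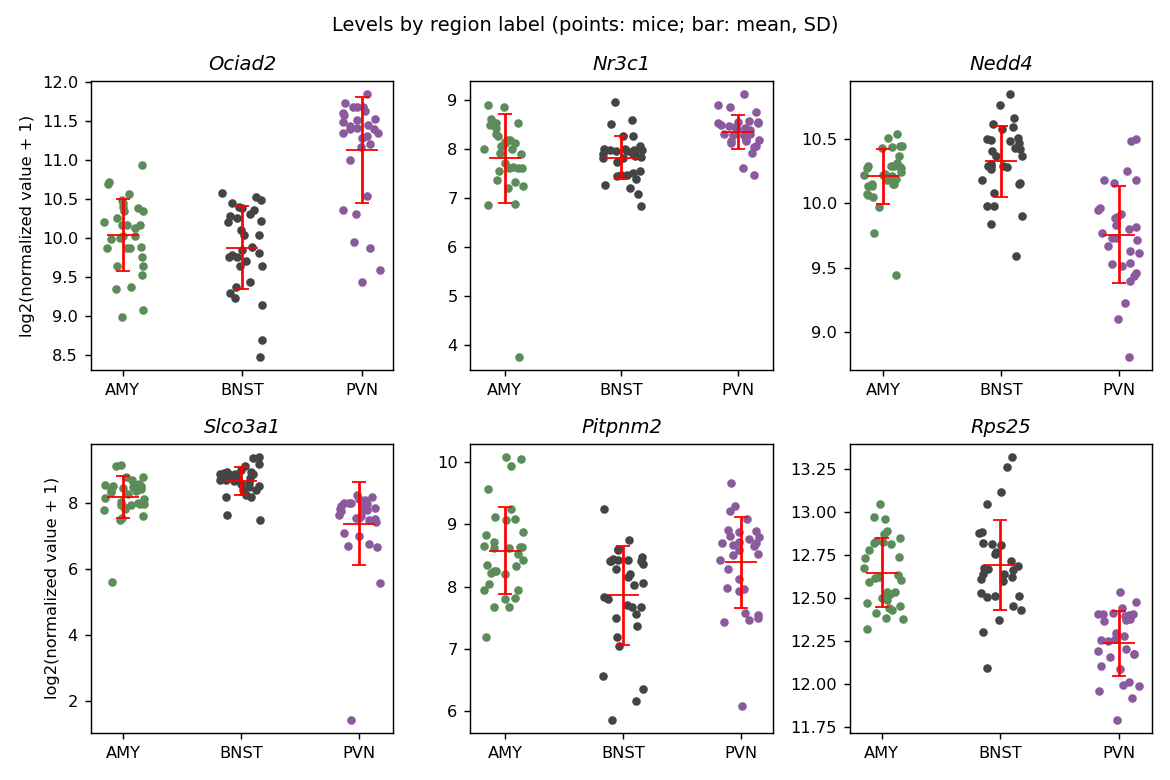
log2(normalized value + 1) (y axis, scaled separately for each gene) of 6 genes in the amygdala (AMY), the BNST and the PVN (x axis). Points are mice and bars are the mean and SD. *Ociad2* and *Nr3c1* are lower and *Nedd4*, *Slco3a1* and *Rps25* higher in the BNST than in the PVN, while *Pitpnm2* is lower in the BNST than in both others.

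Whether status or injection acted differently in the BNST than in these regions was tested on the same within-mouse differences. By limma no effect differed at an adjusted p of 0.1 for either region and any of the 3 terms (0%). At an unadjusted p under 0.05, 6 genes (8.7%) differed by status, 4 (5.8%) by injection and 2 (2.9%) by the interaction against the AMY. Against the PVN 3 genes (4.35%) differed by status, 3 (4.35%) by injection and 2 (2.9%) by the interaction. The status difference of *Nedd4* was 0.31 log2 units larger in the BNST than in the AMY (95% interval 0.04 to 0.57, adjusted p 0.371) and 0.31 larger than in the PVN (-0.06 to 0.69, adjusted p 0.652). In those regions themselves the difference was -0.01 (-0.18 to 0.16) in the AMY and -0.01 (-0.31 to 0.30) in the PVN. The gene nearest to the threshold was *Timm23*, whose injection difference was 0.60 lower in the BNST than in the PVN (95% interval of the signed difference -0.96 to -0.25, adjusted p 0.112). It passed when genes with a mean value under 10 were left out. The injection difference of *Timm23* was -0.14 (-0.44 to 0.17) in the BNST and 0.43 (0.15 to 0.71) in the PVN.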

How the data were processed

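RNA from frozen micropunches was measured with TruSeq Targeted RNA sequencing on a MiSeq. Read filtering by the authors used PRINSEQ lite 0.20.4, alignment used BWA 0.7.12 against the assay manifest, and DESeq2 supplied the normalization. The deposited values are a signal, each being a gene's reads over the sample's size factor. Within a sample, values are whole multiples of 1 step (100% of 2139 BNST values, within 0.01 reads), which gave the reads per library. The submitters' processing notes name mm10, and positions are from GENCODE M21 (GRCm38, the same assembly).

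Values were analysed as log2(value + 1) with limma 3.58.1 (R 4.3.3), with a mean for each of the 4 label groups and Benjamini-Hochberg adjustment over 69 genes. The threshold of 0.1 is that of the study, which applied it to fewer genes and to other models. The 5 surrogate variables of the study were not used here. AMY and PVN were compared with the BNST through within-mouse differences, since both regions come from the same animal. Residuals of the same mouse nevertheless had a median correlation of -0.01 (AMY) and 0.06 (PVN), beside -0.01 and -0.02 for different mice. limma was also run on shuffled BNST residuals in which 10 genes were shifted up or down by 1 log2 unit. That shift exceeds the status difference of *Nedd4* (0.32), so recovery of differences of that size was not tested. Genes named are the 10 of lowest p per term, *Nr3c1*, those of lowest p by region and list members of lowest p; *Timm23* and *Nedd4* were chosen for the comparison of effects between regions after their values were seen. Some genes that this rule names are not reported here. The members and lists were chosen with earlier results of these data known. Alternatives were pseudocounts of 0.1 and 10, genes with a mean of at least 10, the 50 genes of the study's network, equal totals, 5 principal components computed in 2 ways, an adjusted p of 0.05, robust moderation, leaving out each library, no replicate block and, chosen after seeing the data, leaving out libraries under 60000 reads. Reads of amplified libraries are not independent molecules, so limits from them cover counting error only.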

Additional observations from a re-analysis of the deposited data

Results flagged for a closer look

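Dixon's criterion was applied to 100 groups of BNST mice (24 named genes and the reads per library, in 4 label groups). In 14 of them the highest or lowest mouse lay far from the others. For normally distributed values chance alone gives this in about 1 of 20 groups. Several of the flagged groups held values of 0 and do not meet that condition, so the 14 cannot be set against this rate. The values below are given without explanation.

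In Co inject, mouse 233 had a *Zfp553* value of 9.15 and mouse 249 a *Nuak2* value of 36.5, with 0 in the other 6 mice. Mouse 247, with 56233 reads, had 0 for *Rfx5* and *Mknk2*, against 20.6 to 160 and 18.3 to 70.8 in the others. Without it the interaction of *Rfx5* was 2.97 and the injection difference of *Mknk2*, an eIF4E kinase, was 1.39.

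In Co naive, mouse 251 had an *Rfx5* value of 1.90 (others 35.8 to 317) and mouse 239 a *Dpm2* value of 805 (others 486 to 589), without which the interaction of *Dpm2* was 0.66.

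In MS inject, mouse 81, with 50035 reads, had a *Fam117b* value of 222 (others 474 to 670) and an *Rbm4* value of 0 (others 32.5 to 208). Without it the status difference of *Fam117b* was 0.49 and the injection difference of *Rbm4*, a splicing regulator, was -0.21 rather than -0.63. Mouse 95, with 47577 reads, had an *Nr3c1* value of 497 (others 176 to 257). Mouse 79 had an *Rfx5* value of 1.91 (others 42.3 to 183), and mouse 97 an *Mknk2* value of 16.9 (others 44.3 to 84.6).

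In MS naive, mouse 107 had a *Fan1* value of 6.29 and a *Zap70* value of 34.6, with 0 in the other 7 mice for both genes. Without it the status difference was -1.43 for *Fan1* and -2.53 for *Zap70*, both with a limma adjusted p of 0.1005. Mouse 101 had 0 for *Cdkn1a*, against 12.6 to 134 in the others, and without it the injection difference of *Cdkn1a* was 0.65.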

How the results depend on the processing

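Count tests of the reads, edgeR and a DESeq2-type test, were planned as further alternatives but were not run. Of 147 recomputed counts of called genes, 130 were within 1.5 times the reported count in either direction, 16 were higher by more than that and 1 was lower by more than that. For the BNST terms and the effects between regions the reported count was 0. There only another 0 counted as within that range, so the 130 mostly restate that no gene was called. By status 1 gene, *Nedd4*, was called with a pseudocount of 0.1 and 1, again *Nedd4*, among genes with a mean of at least 10. With 5 components computed after the group means, which by construction do not differ between groups, 3 genes were called by status (*Lcn2*, *Nedd4*, *Zap70*), 1 by injection (*Lcn2*) and 1 by the interaction (*Zap70*). With 5 components after region means only, there were 0. Leaving out 1 library gave 0 to 1 genes by status, with 1 in 10 of 31 fits, and 0 for the other terms. Against the AMY 2 levels passed an adjusted p of 0.05, and 1 effect differed from the PVN among genes with a mean of at least 10. Without the replicate block, 6 levels were called against the AMY and 13 against the PVN, and 0 effects differed from either region.

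The 1297 recomputed single-gene differences were those of the 10 genes of lowest p per term and of *Nr3c1*. A gene of low p is unlikely to change sign, so their stability was largely set by this choice. Of the 1297, 14 changed sign, all of *Nr3c1* and all on leaving out 1 library. The 4 by status lay between 0.0034 and 0.024 and the 10 for the interaction between 0.0057 and 0.081, while over all 31 such fits the differences ran from -0.11 to 0.024 and from -0.18 to 0.081. Equal totals shifted the median of all genes by -0.07 for status, -0.03 for injection and -0.02 for the interaction.

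A count of 0 allows a normalized value of up to 2.11 to 10.6, depending on the library, so smaller levels were not detectable. Of the 21 genes with an SD of at least 1 log2 unit within groups, 18 were at 0 in some library, and 7 genes at 0 somewhere reached values of 100 or more elsewhere, above that limit. The part of depth in this spread was not tested.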
